A study of Mus musculus with 37 samples.

Results

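The regions described here are the DNase I hypersensitive sites (DHSs) of mouse 2-cell embryos that the authors listed as decreased after knockdown of Nfya. A DHS is a stretch of chromatin open enough for the enzyme DNase I to cut, as active promoters and enhancers are. All regions of the authors' table were taken, which gave 286 of the 1006 DHSs in their 2-cell list, or 28.4%. All 286 had the same coordinates as a site of that list, and the other 720 sites served for comparison where no value per library was needed, since values for them were not analysed here. The 5 embryo stage lists of the series, from the 1-cell embryo to the morula, held 22621 sites together.

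The series mapped open chromatin through mouse preimplantation development with a DNase-seq method for small inputs. The regions rest on 4 libraries of embryos made by in vitro fertilization of BDF1 oocytes with BDF1 sperm and collected 30 h after fertilization, the oocytes coming from superovulated 8-week-old females. The sperm strain is that of the samples' strain labels; a culture protocol shared by the series names JF1 males. Embryos of the siControl group had been given a control siRNA and those of the Nfya-KD group an siRNA against Nfya, with no other genetic change named in the labels. Libraries siControl 1 and Nfya-KD 1 were each made from 70 embryos, and siControl 2 and Nfya-KD 2 each from 90 embryos, pooled and freed of their polar bodies. The source labels number the Nfya siRNA 1 or 2 as the library, so a difference between Nfya-KD libraries cannot be told apart from a difference between siRNAs. An siRNA lowers a message and does not remove the protein already made by the oocyte, which limits the knockdown as a model of loss.

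NF-Y is a complex of 3 subunits that binds the CCAAT box, a motif common in promoters. NFYA makes the sequence-specific contact, while NFYB and NFYC pair through histone folds much like those of core histones. The complex is known to help keep promoters open and to help other factors bind. In the mouse the main wave of transcription from the embryo's own genome starts at the 2-cell stage, when promoters that were closed or weakly open after fertilization gain accessibility. The comparison of Nfya-KD with siControl embryos asks which of the sites open at that stage depend on Nfya. The table was, however, chosen on the same 4 libraries that give its values. The fall of its regions is therefore a description of the choice, and no support is drawn from it below.

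The knockdown was seen in RNA from separate pools of embryos. In FPKM, a unit of RNA abundance scaled by transcript length and library depth, siControl embryos had 10.3 and 15.5 of Nfya and Nfya-KD embryos 3.28 and 4.48, so that 31.9% and 28.8% of the siControl level was left within numbers 1 and 2. The partner subunits were higher in the knockdown pools within both numbers. Nfyb was 4.06-fold higher within number 1 (52.9 against 13.0 FPKM) and 3.27-fold higher within number 2 (127 against 38.8 FPKM). Nfyc differed less, being 1.30-fold higher (34.5 against 26.6 FPKM) and 1.17-fold higher (49.5 against 42.5 FPKM). The 2-cell stage was checked with 7 markers. The Zscan4 members Zscan4c, Zscan4d and Zscan4f, with Zfp352 and Tdpoz1, were at 33.3 FPKM or above in all 4 libraries. Tcstv1 and Tcstv3 were listed at 0. Within number 2 every detected marker was lower in the knockdown, with ratios to siControl from 0.491 (Zscan4f) to 0.813 (Zscan4d). Within number 1 the order was mixed, with ratios from 0.959 (Zscan4c) to 1.37 (Tdpoz1). In Nfya-KD the 5 oocyte markers (Zp3, Gdf9, Bmp15, Omt2a and Npm2) summed to 6898 FPKM for number 1 and 15089 FPKM for number 2. The matching siControl sums were 5759 and 15838 FPKM. The 5 cumulus markers summed to between 0.552 and 1.05 FPKM, and the 4 sperm markers to between 2.86 and 10.4 FPKM, of which Prm1 was listed at 0 and Prm2 was at 1.84 to 9.33 FPKM. Of the trophectoderm markers, Krt8 was lower in the knockdown pools within both numbers, at 3.38 against 7.37 FPKM and 1.28 against 4.11 FPKM. Krt18 was lower in both as well, at 17.8 against 25.2 FPKM and 3.28 against 4.83 FPKM, while Cdx2 was at 0.318 FPKM or below. The part of these markers in the results was not tested. No such check was made in the DNase-seq pools.

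The libraries differed in depth, and over the 286 regions 1 of them stood apart. The values are reads scaled to library depth (RPM), and in each library all of them were whole multiples of 1 read to within 0.1 read, so reads could be recovered. By these steps siControl 1 held 2821185 reads and Nfya-KD 1 held 3185181 reads, against 14405286 in siControl 2 and 12296800 in Nfya-KD 2. Over the 286 regions siControl 1 summed to 558 RPM, siControl 2 to 183 RPM, Nfya-KD 1 to 111 RPM and Nfya-KD 2 to 110 RPM. The Nfya-KD libraries thus lay within 1.01-fold of each other, while siControl 1 lay 3.06-fold above siControl 2 and gave 75.3% of the mean siControl signal. These sums are over regions chosen on the values of the same 4 libraries, and the libraries were not compared over other sites. What set siControl 1 apart was not tested, and results below are given within each number or without siControl 1.

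The median region was at 1.77 RPM in siControl 1, 0.555 RPM in siControl 2, 0.314 RPM in Nfya-KD 1 and 0.325 RPM in Nfya-KD 2. These medians stood for 5, 8, 1 and 4 reads. Regions without a single read numbered 7 in siControl 1, 2 in siControl 2, 108 in Nfya-KD 1 and 11 in Nfya-KD 2. In the shallow libraries 3 reads, the most that a true count may plausibly hide behind a 0, were worth 1.06 RPM in siControl 1 and 0.942 RPM in Nfya-KD 1, against 0.208 and 0.244 RPM in the deep ones. A region at 0 in Nfya-KD 1 may therefore have been as open as the median region of siControl 2. In bulk libraries, fewer embryos or cells with an open site and less opening per cell cannot be told apart.

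**Figure D1:**
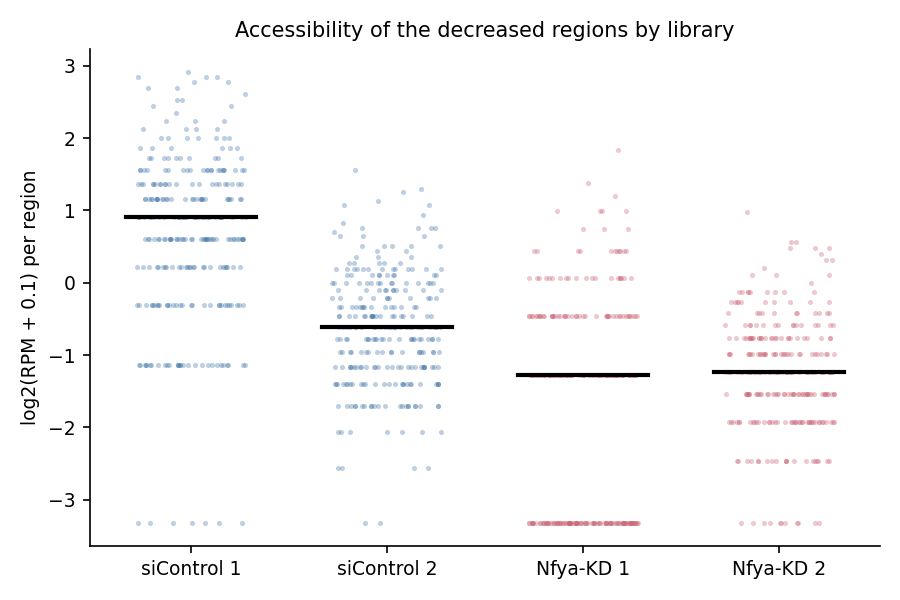
Accessibility of each of the 286 regions, as log2 of RPM with 0.1 added, in the 4 libraries; points are regions, bars are medians, and the rows of points are regions with the same small number of reads. The median was 1.77 RPM in siControl 1, 0.555 RPM in siControl 2, 0.314 RPM in Nfya-KD 1 and 0.325 RPM in Nfya-KD 2.

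Compared within number 1, the regions were far lower in the knockdown. The median log2 fold of Nfya-KD 1 over siControl 1, with 0.1 RPM added to each, was -2.18, with quartiles of -3.02 and -1.61. Of the 286 regions 279 were lower, 7 had no read in either library and 0 were higher, and 264 (92.3%) were at least halved. Within number 2, where both libraries were deeper, the median log2 fold was -0.62, with quartiles of -1.16 and -0.13. There 224 regions (78.3%) were lower and 62 (21.7%) higher in the knockdown, and 92 (32.2%) were at least halved while 7 were at least doubled. The summed RPM of the regions was 5.05-fold lower within number 1 and 1.67-fold lower within number 2.

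Taking both numbers together, 217 regions were lower in both (75.9% of all in the table), and 70 were at least halved in both (24.5%). Both Nfya-KD libraries lay below both siControl libraries in 164 regions (57.3%). These shares are of regions chosen for that contrast, and nothing is read from them. The siControl 1 value exceeded both Nfya-KD values in 277 regions (96.9%), and the siControl 2 value did so in 173 (60.5%). Across regions the folds of the 2 numbers had a Pearson correlation of -0.42; the regions are not independent replicates, and a list chosen on the mean of both numbers keeps a region with a small fold in one only where it is large in the other.

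**Figure D2:**
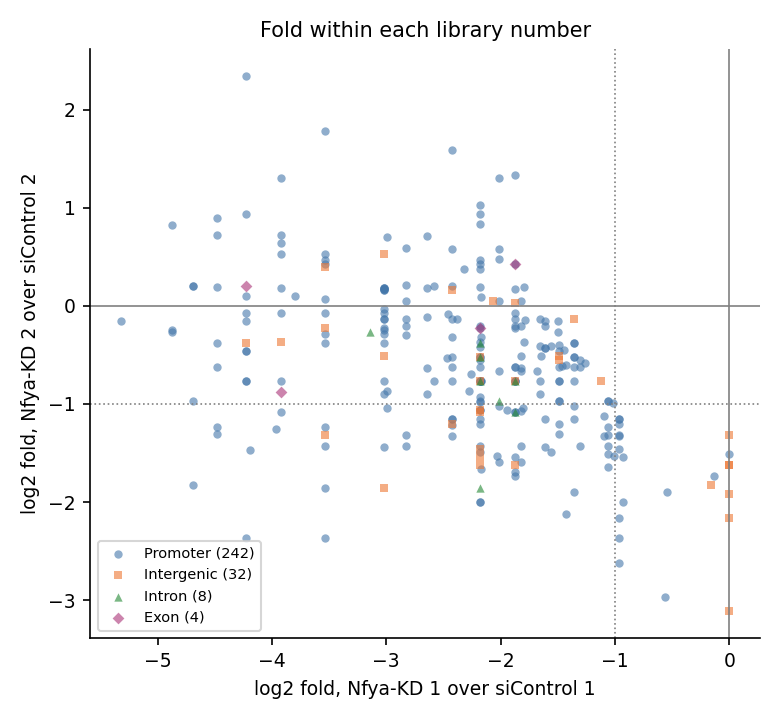
Log2 fold of each region within number 1 (horizontal) and number 2 (vertical), with 0.1 RPM added, coloured by the authors' class; solid lines mark no change and dotted lines a halving. No region lies to the right of 0 on the horizontal axis, whereas 62 lie above 0 on the vertical axis.

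Counting error limited single regions. A 95% exact interval for the ratio of Nfya-KD to siControl, made from the reads of 1 pair of libraries (Clopper-Pearson, counting error only), lay below 1 in 70 regions within number 1 (24.5%) and in 35 within number 2 (12.2%), and above 1 in 0 and 1 regions. It lay below 1 in both numbers in 7 regions and in neither in 188. The median region rested on 6 reads in number 1 and 12 reads in number 2, or 18 over all 4 libraries.

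No region passed a test over replicates. Limma on log2(RPM + 0.1), with Benjamini-Hochberg adjustment over the 286 regions, called 0 regions lower (0%) and 0 higher, and 11 were lower at an unadjusted p under 0.05; the smallest adjusted p was 0.488. EdgeR's quasi-likelihood test on the recovered reads also called 0 (0%), with 8 lower at an unadjusted p under 0.05, and DESeq2 called 0, with 5. Without siControl 1 limma called 3 regions lower, with a smallest adjusted p of 0.0495, the remaining siControl library being assumed to vary like the Nfya-KD libraries. The summed RPM was 370 ± 266 in siControl and 110.1 ± 0.63 in Nfya-KD (SD, n = 2 each), which an exact two-sided permutation test gave p = 0.333, the smallest that 2 against 2 libraries allow. The regions were chosen for higher mean siControl values in these same libraries, so the direction of the sums was fixed by that choice. No label says that pools with different numbers came from separate matings, so these tests measure only the spread between libraries, which may be technical in part.

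The table's own threshold can be followed. The authors' deposited table gives a log2 fold for each region, from 1.005 to 3.578 with a median of 1.44, and these were recomputed to within 0.0005 as the log2 of mean siControl over mean Nfya-KD RPM with 0.1 added to each mean. Every region of the table thus lay at or above a fold of 1 on this scale. Without siControl 1, only 90 of the 286 regions (31.5%) stayed past this fold, and 50 were higher in the knockdown. Without siControl 2 it was 273 regions, without Nfya-KD 1 it was 214, and without Nfya-KD 2 it was 232. Number 1 alone left 264 regions past the fold and number 2 alone 92. Pooling reads within each group, which lets the deep libraries weigh more, gave 244 RPM in siControl and 110 RPM in Nfya-KD over all regions, a median log2 fold of -0.95, 282 lower regions and 135 (47.2%) at least halved.

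**Figure D3:**
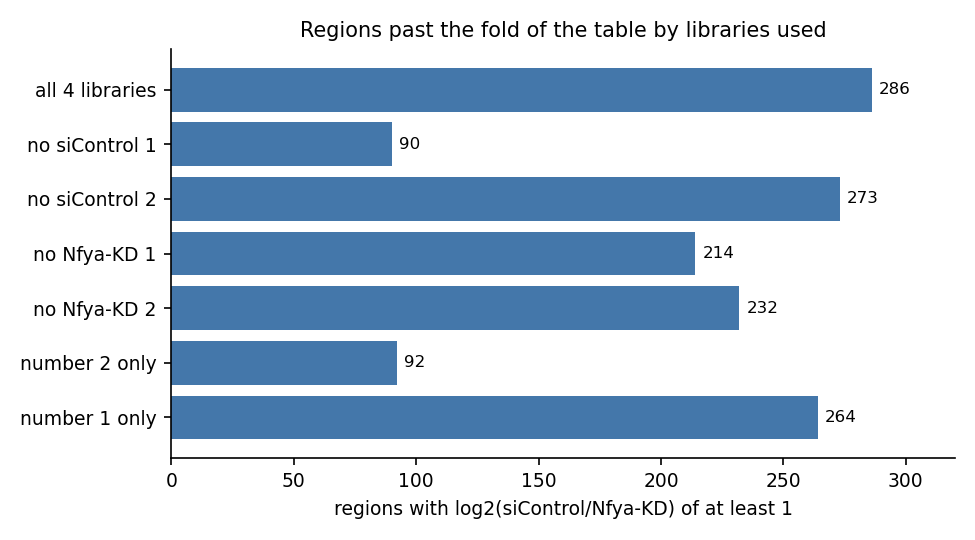
Number of the 286 regions whose log2 ratio of siControl to Nfya-KD RPM (0.1 added) was at least 1, computed from all 4 libraries, with 1 library left out, or from 1 number alone. The bar is shortest without siControl 1, at 90 regions, and 273 regions remain without siControl 2.

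The most open regions of the table were promoters. The region of highest mean siControl signal was at chr5:138069881-138070370 (mm9 coordinates, as all that follow), with 7.09 and 2.36 RPM in siControl 1 and 2 and 3.45 and 1.14 RPM in Nfya-KD 1 and 2. It was close to halved in each number, with log2 folds of -1.02 and -0.99, from 20 against 11 reads and 34 against 14 reads. The groups overlapped, since Nfya-KD 1 lay above siControl 2. It was also among the regions just inside the threshold, with a deposited log2 fold of 1.01 in the authors' deposited table.

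The promoter region chr7:3596421-3596750 had the most negative log2 folds among the 6 regions of highest signal. It was at 7.44 and 1.53 RPM in siControl and at 0.314 and 0.488 RPM in Nfya-KD, or 21 and 22 reads against 1 and 6. Both Nfya-KD libraries lay below both siControl libraries, with log2 folds of -4.19 and -1.47, and the counting interval of the ratio lay below 1 in each number, reaching 0.262 and 0.812.

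The other 4 of these promoter regions had log2 folds between -2.26 and -1.46 within number 1 and between -0.69 and -0.15 within number 2. At chr7:26052801-26053430 siControl was at 7.09 and 2.01 RPM and Nfya-KD at 2.197 and 1.38 RPM. At chr17:57170981-57171450 it was 6.38 and 2.29 against 1.26 and 1.38 RPM. At chr16:42875521-42875970 it was 7.09 and 1.67 against 2.51 and 1.06 RPM. The smallest difference within number 2 was at chr7:52184881-52185190, with 6.74 and 2.08 against 1.88 and 1.87 RPM, or 30 against 23 reads in number 2. The groups overlapped on chr16 and at chr7:26052801-26053430, where Nfya-KD 1 lay above siControl 2, and did not overlap in the other two.

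The regions lowest against siControl in both numbers had few reads. The promoter region chrX:53851181-53851410 was at 1.77 and 0.417 RPM in siControl, 5 and 6 reads, with no read in either Nfya-KD library, which makes it at least 3.30-fold lower when set against 3 reads over the pooled Nfya-KD libraries. The promoter region chr14:41780141-41780490, with 3 and 6 reads in siControl and 0 in Nfya-KD, was at least 2.70-fold lower by the same floor. Among the 286 regions, 8 had no read in Nfya-KD, and 6 of these were intergenic, beside 11.2% of all 286. These 6 had 3 to 11 siControl reads, and their floors ran from 0.899-fold to 3.30-fold. At chr1:172829861-172830010 and chr7:4490721-4490910, with 3 siControl reads each, the floor was below 1, so no fall is shown there. At chr2:25117901-25118150 and chr9:64026861-64027290, both promoters, 1 and 9 siControl reads stood against 0 and 1. At the promoter region chr18:65590341-65590570 it was 3 and 8 against 0 and 1, and at the intron chr12:25544141-25544450 it was 5 and 8 against 1 and 1. The groups did not overlap in any of the 6 regions lowest against siControl in both numbers, nor in 57.3% of all 286. These 6 were picked for their fall in both numbers, so nothing is read from this. Within number 1 the counting interval of their ratio reached above 1 in all except the X region, where it ended at 0.967.

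At the edge of the table the numbers differed. The intergenic region chr9:20965881-20966170, with the smallest deposited log2 fold, 1.005 in the authors' deposited table, was at 1.42 and 0.555 RPM in siControl and 0.314 and 0.569 RPM in Nfya-KD, so that it was level within number 2. The promoter region chr7:133709801-133710150, at 1.008, was lower within number 1 (1.42 against 0.314 RPM) and higher within number 2 (0.069 against 0.325 RPM, or 1 read against 4). The promoter region chr11:23155501-23155930, at 1.009, stood the other way round, with a log2 fold of -0.57 within number 1 and -2.97 within number 2, where 19 reads in siControl stood against 1 in Nfya-KD. Values of the sites just outside the threshold were not analysed here.

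Among the 62 regions that were higher within number 2, those of highest siControl signal differed little there. The promoter region chr15:78893221-78893590 was at 5.67 and 0.902 RPM in siControl and 0.314 and 0.976 RPM in Nfya-KD, or 16 and 13 reads against 1 and 12. The intergenic region chr15:72897781-72898150 was at 4.25 and 1.25 against 0.942 and 1.30 RPM, and the promoter region chr11:109472841-109473190 at 4.61 and 0.833 against 0.942 and 0.894 RPM. In all 3 siControl 1 was the highest library and siControl 2 lay below Nfya-KD 2.

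Most of the regions were promoters by the authors' class, which the sources used here do not define. Promoters made up 242 of the 286 regions (84.6%, 95% exact binomial interval 79.9 to 88.6) and 535 of the 720 other 2-cell DHSs (74.3%, 70.9 to 77.5). Seen from the 2-cell list, 31.1% of its 777 promoter sites were in the table (27.9 to 34.5), against 18.7% of 171 intergenic sites (13.2 to 25.4), 17.8% of 45 intron sites (8.00 to 32.1) and 30.8% of 13 exon sites (9.09 to 61.4), beside 28.4% of all sites. These intervals cover counting error over sites only. The promoter share depended on siControl 1: of the 90 regions past the fold without that library 64 were promoters, or 71.1% (60.6 to 80.2), while number 2 alone gave 80.4% of 92 regions (70.9 to 88.0). The 720 other sites could not be passed through the rule again, so these shares take out regions and add none.

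The sex chromosomes bore on the class shares as well. On X, 82 of 103 2-cell DHSs lay in 2 dense runs of intergenic sites (at least 20 sites with gaps under 1 Mb), chrX:3009101-4894490 with 46 sites and chrX:30340721-32178830 with 36. Of these 82 sites 8 were in the table, or 9.76% (4.31 to 18.3), against 10 of the 21 X sites elsewhere (47.6%, 25.7 to 70.2). With the dense runs left out, promoters were 87.1% of the decreased regions (82.5 to 90.8) and 82.8% of the others (79.7 to 85.6), and 27.0% of 89 intergenic sites were in the table (18.1 to 37.4). On the autosomes 29.5% of 893 sites were in the table, and on Y 5 of 10 sites.

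**Figure D4:**
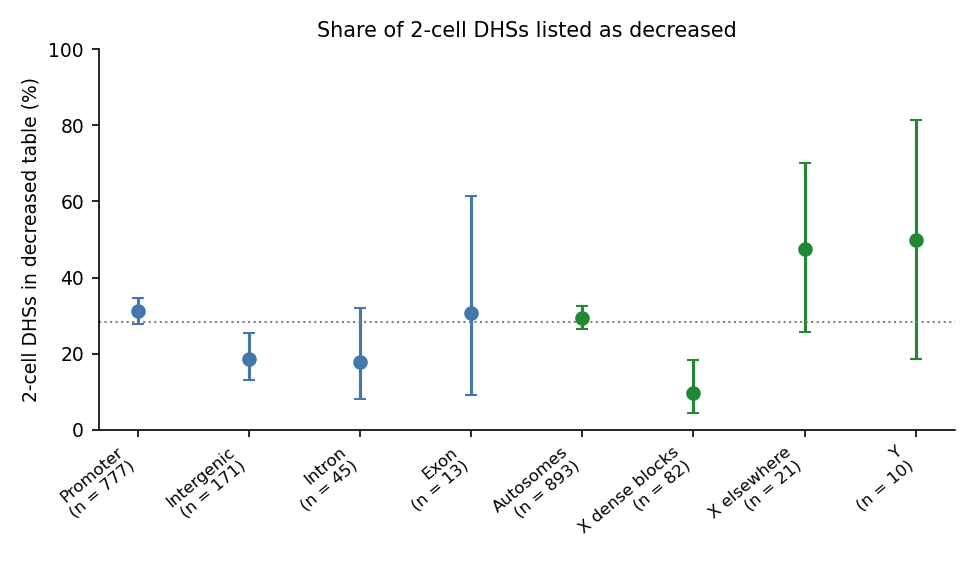
Percentage of the authors' 2-cell DHSs that are in the decreased table, by class (blue) and by chromosome group (green), with exact binomial 95% intervals; n is the number of 2-cell DHSs and the dotted line marks the 28.4% of all sites. The dense X blocks lie lowest, at 9.76%, and the intervals of exons, X elsewhere and Y are wide.

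The classes were compared within each number. Promoter regions summed to 509 and 159 RPM in siControl and to 102 and 97.7 RPM in Nfya-KD, and regions of the other classes to 49.3 and 23.6 against 8.48 and 12.0 RPM. The median log2 fold was -2.18 for 242 promoters and -2.18 for the 44 other regions within number 1, and -0.61 and -0.77 within number 2. The number 1 value of the other regions, whose median in Nfya-KD 1 was 0 RPM, is that of 1 siControl read against 0 with 0.1 RPM added, and the class difference turned with the amount added: promoters minus others gave 0.63 with 0.01 RPM and -0.27 with 1 RPM. Within number 1 the classes can therefore not be ordered. Within number 2 the 32 intergenic regions had a median of -0.92 and the 8 introns of -0.77, and all 8 introns were lower in both numbers. The 4 exons had a median of -0.015 there, 2 of them being higher in Nfya-KD. The log2 ratio of promoter to other summed RPM was 3.37 and 2.75 in siControl and 3.59 and 3.03 in Nfya-KD, higher in Nfya-KD by 0.22 within number 1 and by 0.28 within number 2. This was less than the spread between libraries of a group, with SDs of 0.44 and 0.40, and an exact two-sided permutation test over the 4 libraries gave p = 0.667 (n = 2 each).

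Examples of the other classes were at lower signal. The intron region chr7:28115801-28116050 was at 3.55 and 0.902 RPM in siControl and 0.314 and 0.732 RPM in Nfya-KD, and the intron region chr11:34495321-34495490 at 2.84 and 0.417 against 0.628 and 0.163 RPM. The latter was absent from the other 4 stage lists and from the oocyte list. The intergenic region chr3:90096901-90097130 was at 3.55 and 0.625 against 1.57 and 0.325 RPM. Of the exon regions, chr14:63796701-63796950 was at 1.42 and 0.833 against 0 and 0.407 RPM, and chr7:28146481-28146690 at 1.77 and 0.555 against 0 and 0.651 RPM, higher in Nfya-KD within number 2.

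Most decreased regions were also listed at later stages. Of the 286 regions 129 (45.1%) were absent from the 1-cell list and in every later one, 103 (36.0%) were in all 5 stage lists, and 29 (10.1%) were absent from the 1-cell and 4-cell lists alone. Of the 720 other sites these patterns took 41.7%, 27.6% and 16.0%. Only 8 (2.80%) were in the 2-cell list alone, against 5.14% of the other 720 sites. All 232 regions of the 4-cell list were also in the 8-cell and morula lists. A site was counted in a list where it shared at least 1 bp with one of its sites, and each list is 1 set of sites per stage, with no replicate error.

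The lists of the stages before and after held larger shares of the decreased regions than of the other 2-cell DHSs. The 4-cell list held 81.1% of them (76.1 to 85.5) and 70.7% of the others (67.2 to 74.0), and the 1-cell list 39.5% (33.8 to 45.4) and 30.8% (27.5 to 34.3). The 8-cell list held 96.2% and 92.6%, and the morula list 95.5% and 90.1%. Correspondingly, 60.5% of the decreased regions and 69.2% of the others were absent from the 1-cell list and count as gained by the authors' lists.

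The oocyte list and each pronuclear list gave the same order. Oocytes from 14-day-old mice shared 48.6% of the decreased regions (42.7 to 54.6) and 36.0% of the others (32.5 to 39.6). The pronuclei are the nuclei of egg and sperm origin before they join, and PN3 and PN5 are an earlier and a later stage of the zygote. Maternal pronuclei at PN3 shared 76.9% (71.6 to 81.7) against 62.2% (58.6 to 65.8), and paternal ones 75.9% against 61.0%. At PN5 the maternal list held 79.7% against 67.8% and the paternal list 69.6% against 54.4%. Both PN5 lists held 66.8% of the decreased regions and 50.8% of the others, and all 4 pronuclear lists held 59.4% and 43.8%. Sites in only one PN5 list were the exception to this order, since the maternal list alone held 12.9% of the decreased regions and 16.9% of the others, and the paternal list alone 2.80% and 3.61%. The pronuclear lists and the 1-cell list together held 87.4% of the decreased regions and 76.7% of the others. Absence from the 1-cell list alone therefore does not mean that a region was closed in the zygote.

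Class and siControl 1 bore on these shares. Among promoters only, the 4-cell list held 89.3% of the decreased regions (84.7 to 92.9) and 81.5% of the others (77.9 to 84.7), and the oocyte list 53.7% (47.2 to 60.1) and 45.0% (40.8 to 49.4). The 1-cell share was then 42.6% against 39.1%, and maternal PN3 85.1% against 78.5%, while the 8-cell list held 99.6% and 99.1% and the morula list 100% and 99.8%. In the other classes the 4-cell order was turned, with 36.4% of 44 decreased regions (22.4 to 52.2) against 39.5% of 185 others (32.4 to 46.9), and the 1-cell list held 22.7% (11.5 to 37.8) against 7.03% (3.79 to 11.7). Without siControl 1, the 90 regions left past the fold had shares of 65.6% in the 4-cell list (54.8 to 75.3), 35.6% in the 1-cell list, 38.9% in the oocyte list and 65.6% in the maternal PN3 list. The 4-cell share of these regions was below the 70.7% of the 720 other sites, and the other 3 shares were above theirs, with overlapping intervals throughout. Regions that fell short of the fold without siControl 1 were in neither set, so no order is read from these shares. From number 2 alone, the 92 regions had 77.2% in the 4-cell list, 44.6% in the 1-cell list, 54.3% in the oocyte list and 75.0% in the maternal PN3 list. The signal of the 720 other sites was not analysed here, so the part of signal in these shares was not tested.

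**Figure D5:**
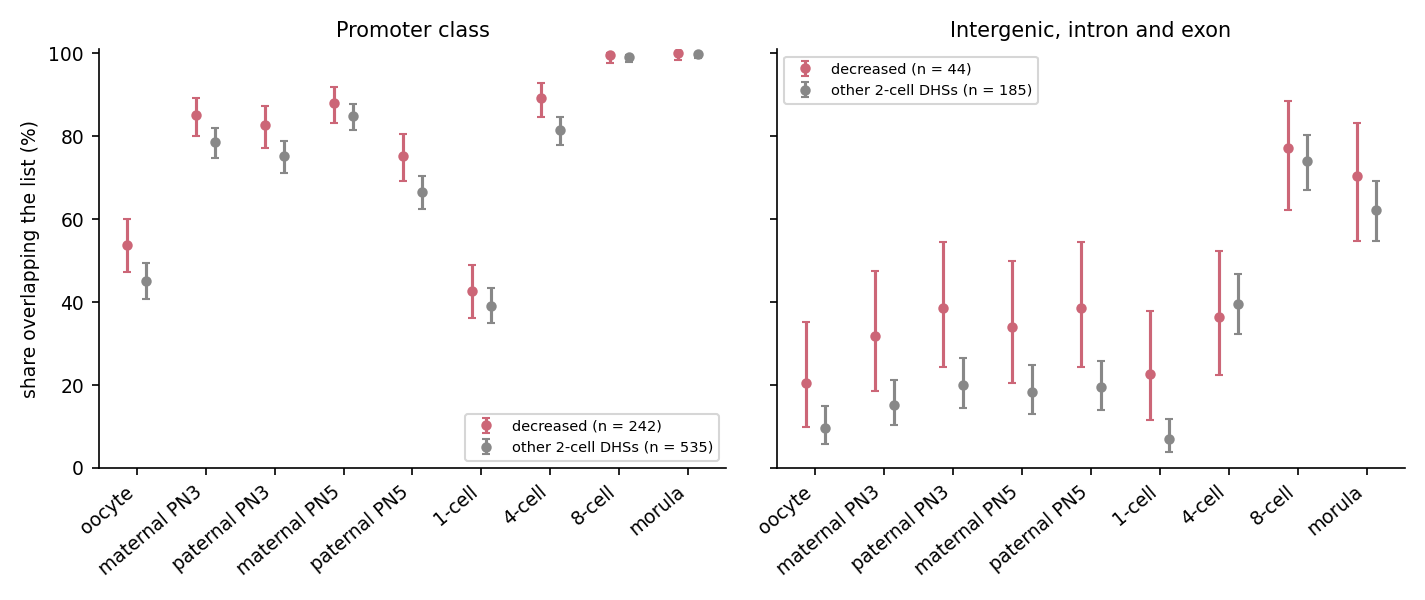
Percentage of sites that overlap each of the authors' oocyte, pronuclear and embryo stage lists by at least 1 bp, for decreased regions (red) and the other 2-cell DHSs (grey), with exact binomial 95% intervals; promoters on the left, other classes on the right. Among promoters the 4-cell list held 89.3% of decreased regions and 81.5% of the others.

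Regions also open elsewhere had more signal in siControl. The 139 regions in the oocyte list had medians of 2.13 and 0.694 RPM in siControl 1 and 2, and the 147 not in it 1.42 and 0.417 RPM. Their median log2 folds within number 2 were -0.64 and -0.58. Within number 1 the medians of most such groups sat at or near -2.18. That is the value of 1 siControl read against 0 and also of 5 against 1, so those medians separate the groups poorly. By the log2 fold of summed RPM, with nothing added, the regions in and not in the oocyte list stood at -2.24 and -2.53 within number 1. Within number 2 they stood at -0.73 and -0.74. The 113 regions in the 1-cell list had medians of 2.13 and 0.764 RPM in siControl, and the 173 not in it 1.42 and 0.486 RPM. Within number 2 the former were lower in the knockdown in 85.0% of cases and the latter in 74.0%, with medians of -0.64 and -0.52. Within number 1 the order was turned, with medians of -2.01 and -2.18 and log2 folds of summed RPM of -2.15 and -2.55.

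The remaining groups were compared within number 2, with the log2 fold of summed RPM within number 1 beside it. The 170 regions in all 4 pronuclear lists were lower within number 2 in 83.5% of cases, and the 116 others in 70.7%. Within number 1 the former had fallen less by summed RPM, with -2.22 against -2.73. The 129 regions absent from the 1-cell list and in every later one had a median of -0.42 within number 2, against -0.77 for the 157 others. Their order was turned within number 1, at -2.46 against -2.25 by summed RPM. The 54 regions absent from the 4-cell list had -0.77 and the 232 in it -0.56, and the 11 absent from the 8-cell list had -1.32 and the 275 in it -0.61, those absent starting from medians of only 0.347 and 0.278 RPM in siControl 2. By summed RPM within number 1 the values were -3.15 against -2.28 for the 4-cell list and -2.84 against -2.33 for the 8-cell list. The medians there were -2.18 in each of these groups and gave no order. The regions absent from the 8-cell list summed to only 0.942 RPM in Nfya-KD 1, worth 3 reads. Those absent from the 4-cell list summed to 5.34 RPM there. These are values over regions of the same libraries and were given no test.

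The table was set beside that of the other knockdown of the series. Knockdown of Oct4, a pluripotency factor, was studied at the 8-cell stage with libraries of its own. Its table holds decreased sites among those gained at the 8-cell stage only, by its name. It shared 6 regions with the Nfya-KD table, 2.10% of the 286 (0.774 to 4.51) and 0.227% of its 2643, while it held 27 of the 720 other 2-cell sites (3.75%, 2.49 to 5.41). All 33 of these were in the 8-cell list and absent from the 4-cell list, as were only 43 of the 286 regions and 164 of the other 720. Of the 43 the Oct4-KD table held 14.0% (5.30 to 27.9), and of the 164 it held 16.5% (11.1 to 23.0). The promoter region chr13:58230161-58230410 was at 1.42 and 0.347 RPM in 2-cell siControl and 0 and 0.163 RPM in Nfya-KD, and at 1.58 and 2.22 RPM in 8-cell siControl and 0.299 and 0.145 RPM in Oct4-KD. At chr9:64026861-64027290, described above, the 8-cell values were 0.608 and 0.445 against 0.299 and 0.145 RPM. In both of these the groups did not overlap in either experiment. As both tables list decreased sites only, nothing is read from this or from the overlaps that follow.

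The promoter region chr15:68090161-68090670 was at 0.709 and 0.347 RPM in 2-cell siControl and 0 and 0.325 RPM in Nfya-KD, and at 2.43 and 1.33 against 0.747 and 0.867 RPM in the Oct4 experiment, again with no overlap, although in number 2 of the 2-cell libraries 5 reads stood against 4. The promoter region chr4:133101921-133102090 was at 1.42 and 0.417 against 0.628 and 0.163 RPM, and at 2.56 and 0.296 against 1.05 and 0.145 RPM, with overlapping groups in both experiments. The remaining 2 lay in the dense X runs and had no read in siControl 1 at the 2-cell stage.

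The 3 decreased regions in the sperm list, 1.05% of the 286 (0.217 to 3.03), were intergenic sites on Y. The sperm list also held 4 of the 720 other 2-cell DHSs (0.556%, 0.152 to 1.42). At chrY:2781301-2781630 siControl was at 0.354 and 0.625 RPM and Nfya-KD at 0 and 0.163 RPM. At chrY:2854261-2854590 it was 0.354 and 0.902 against 0 and 0.244 RPM, or 1 and 13 reads against 0 and 3. At chrY:2883621-2884090 it was 1.06 and 0.764 against 0.314 and 0.488 RPM. The groups did not overlap in any of the 3, nor in 57.3% of all 286 regions. The 5 decreased regions of Y had a median log2 fold of -1.54 within number 2, with siControl reads of 8 and 85 and Nfya-KD reads of 4 and 20 in all. Pools of embryos can differ in their share of males, which was not analysed here.

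Few 2-cell DHSs of either kind had a close neighbour. Of the 286 regions 19 had another 2-cell DHS within 2 kb, and for 6 of these the nearest was decreased too (31.6%, 12.6 to 56.6, beside 28.4% of all 2-cell DHSs), while 75 of the 720 other sites had such a neighbour and for 14 it was a decreased region (18.7%, 10.6 to 29.3). The decreased regions were 150 to 850 bp wide, with a median of 270 bp, the same median as that of the other sites, and covered 83.98 kb in all.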

How the data were processed

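The authors deposited lists of DHSs on mm9 and, for the knockdown, a table of decreased regions with a log2 fold, per the file headers. Its deposited library values were scaled by the authors to library depth and are read here as RPM from their whole-read steps, since no header names the unit. Per the submitters' processing notes, Bowtie 0.12.9, TopHat2 2.0.6 and Cufflinks 2.2.1 were used; the sources used here name no DHS caller and no class definition. The authors deposited FPKM per gene for RNA. The log2 fold in the authors' deposited table was recomputed as described. Members, lists and tests were chosen with earlier results of these data known.

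Groups and numbers come from the sample labels. Starts were read as counting from 0 and are printed with 1 added. All 286 regions entered every count, with no filter. Tests used limma 3.58.1 with a mean-variance trend, edgeR 4.0.16 and DESeq2 1.42.0 in R 4.3.3, with an adjusted p of 0.05 and library totals as recovered; no TMM or size factors over regions were used, since a list of decreased regions would be centred on its own fall. The fits were checked on simulated counts with large changes. Calls were required only at a depth far above the real one, so the check does not show that the tests could call changes at the real counts. Overlaps and intervals used Python 3.11.15 with numpy 2.4.6, pandas 2.3.3 and scipy 1.17.1. Intervals and floors cover counting error only, and PCR copies are not independent molecules.

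Regions named are those of highest mean siControl RPM, the highest of each class, those deepest in both numbers, those just inside the threshold, the highest of those not lower in one number, those shared with the Oct4-KD table and those in the sperm list. No gene names or sequences are given, since no mm9 genome or annotation was used here. There were 0 unused columns of sample values. Alternatives were other pseudocounts (0.01 and 1 RPM), signal and width filters, a replicate block, left-out libraries, stricter overlap (50% of both sites) and autosomes or promoters only. The refits of the table's fold, the pooled reads, the edgeR block and the split of X were added after the data were seen.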

Additional observations from a re-analysis of the deposited data

How the results depend on the processing

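Of 133 alternative values, 94 stayed within the main value's spread, interval or 1.5-fold, and 39 moved. Since the main fit called 0 regions, no call could reverse. For the summed RPM and the promoter ratio the spread was the larger of the groups' SDs. A value could change sign within it, as the log2 promoter ratio did, from 0.25 to -0.06 without siControl 2. Leaving out 1 library at a time, limma called 0 to 3 regions lower, the summed RPM differed by -448 to -72.6, the log2 promoter ratio by -0.06 to 0.56 (below 0 without siControl 2 and without Nfya-KD 1), and 90 to 273 regions stayed past the fold of 1, or 92 from number 2 alone and 264 from number 1 alone. The shares of regions past the fold ranged from 71.1% to 86.8% for promoters, 65.6% to 85.0% for the 4-cell list, 91.1% to 97.1% for the 8-cell list, 88.9% to 96.7% for the morula list, 38.9% to 52.8% for the oocyte list, 65.6% to 83.6% for maternal PN3, 68.9% to 81.8% for paternal PN3, 68.9% to 85.0% for maternal PN5 and 64.4% to 76.2% for paternal PN5, each lowest without siControl 1 and, but for promoters, the 8-cell and the morula list, highest without Nfya-KD 1. Pooled reads left 135 regions past the fold.

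With 1 RPM added the median log2 fold within number 1 was -1.04 and within number 2 -0.23, 0 regions were halved in both numbers, and promoters minus other classes gave -0.27 and 0.013 within numbers 1 and 2; with 0.01 RPM added these class differences were 0.63 and 0.30, from 0.0058 and 0.16. Above the median signal 43 of 146 regions were halved in both numbers. From medians per class in place of sums, the promoter ratio differed by 0.71.

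With 50% reciprocal overlap the shares were 34.6% for oocytes, 57.7% and 54.9% for maternal and paternal PN3, and 59.1% and 52.4% for maternal and paternal PN5. On autosomes maternal PN3 was 81.7% and sperm 0%. Among promoters the shares were 89.3%, 99.6% and 100% for the 4-cell, 8-cell and morula lists, 85.1% and 82.6% for maternal and paternal PN3, 88.0% and 75.2% for maternal and paternal PN5, and 0% for sperm. Except where the alternative's construction shows it (fewer regions, stricter overlap), the cause was not tested.

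With a replicate block limma called 0 regions, with 8 lower at an unadjusted p under 0.05, and edgeR 0, with 7. Deviations of same-numbered libraries had r = 0.152 across regions. With 2 pairs and no label of a shared batch, the libraries share only a number. Depth limits single regions most in siControl 1 and Nfya-KD 1.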
